A study of Arabidopsis thaliana with 32 samples.

Results

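A set of 59 Arabidopsis thaliana genes was read mostly from the paternal allele in hybrid endosperm, the nutritive tissue of the seed. They were chosen from 4 endosperm libraries of the standard reciprocal hybrids, Col x C24 and C24 x Col with the mother named first and 2 libraries each. A nuclear gene entered when at least 10 reads could be assigned to the Col or the C24 allele in each library and the maternal allele held 40% or less of them in each. Of 8271 nuclear genes with enough allele reads, 66 met the limit, and 7 of these belong to 12 genes that were set aside, which leaves the 59. The allele shares of those 4 libraries therefore define the set and are given as a description.

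The study compared seeds of the accessions Col and C24 with seeds in which nucleus and cytoplasm had been recombined between them (the CNS lines of the labels). Endosperm and embryo were cut from seeds by laser capture microdissection, total RNA was extracted and polyadenylated RNA was sequenced. The series holds 32 libraries, 2 in each of 8 groups in each tissue, and one of these groups joins different crosses. No mutant, transgene or treatment is named for any cross, and the sources used here do not state plant age or seed stage. The CNS hybrids were Col(C24) as mother with Col as father (both replicates) and Col(C24) as father, where the mother was Col in replicate 1 and C24(Col) in replicate 2. The selfed crosses were Col(C24), C24(Col), Col and C24. In the libraries with Col(C24) as mother, the nuclear allele reads fitted a C24 maternal nucleus and the organelle reads a Col cytoplasm, so Col(C24) is read here as Col cytoplasm with a C24 nucleus and C24(Col) as the converse. The labels do not tie libraries to separate plants, and p-values here therefore cover only the spread among these libraries, which may be technical, and may be too small.

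Genomic imprinting is the unequal use of the maternal and paternal copies of a gene according to the parent that gave them. In flowering plants it is known chiefly from the endosperm, which carries an extra dose of the maternal genome, whereas the embryo receives one copy from each parent. Paternally expressed genes are commonly silenced on the maternal copy by Polycomb repression at places where that copy has lost DNA methylation, and the group is known for chromatin regulators, type I MADS-box factors and ubiquitin-pathway genes.

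Each library held 8640820 to 54288320 counts assigned to genes, and each hybrid library held 1421300 to 6192600 nuclear allele reads. Over all nuclear genes, 61.5% to 70.1% of the allele reads were maternal in the 8 hybrid endosperm libraries and 46.0% to 54.4% in the 8 hybrid embryo libraries, against the expectation of 2 maternal to 1 paternal genome in endosperm and 1 to 1 in embryo. The share was higher with a Col than with a C24 nucleus in the mother, at 68.3% to 70.1% and 61.5% to 64.1% in endosperm, and the allele tests carry a term for Col against C24. Summed over 11 endosperm markers, the level was 549 to 812 CPM (read counts scaled to library size) in CNS endosperm and 67.5 to 116 CPM in CNS embryo, and 609 to 886 CPM in standard endosperm and 82.0 to 161 CPM in standard embryo. Summed over 20 embryo markers, it was 107 to 413 CPM in CNS endosperm and 1046 to 1362 CPM in CNS embryo, and 106 to 285 CPM in standard endosperm and 1102 to 1225 CPM in standard embryo. The endosperm regulator MINI3 was at 0 in the endosperm libraries of both sets, and the embryo factor DRN was at 0 in standard endosperm. Summed over 19 seed coat markers, it was 176 to 502 CPM in CNS endosperm and 49.2 to 81.1 CPM in CNS embryo, and 263 to 874 CPM in standard endosperm and 65.0 to 111 CPM in standard embryo, so transcripts of the seed coat, a maternal tissue, were present in the endosperm libraries, and their part in the allele shares was not tested. No window of 250 kb on either side of one of the 59 genes deviated by more than 20 percentage points from its library's share.

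Of the 59 genes, 58 code for proteins and AT4G13495 is a non-coding RNA whose locus overlaps annotated microRNA genes on the same strand. They lie on all 5 chromosomes, with 18 on chromosome 1, 9 on chromosome 2, 8 on chromosome 3, 12 on chromosome 4 and 12 on chromosome 5. RefSeq notes name 5 of them as paternally expressed imprinted genes (AGL92, AT1G60410, AT2G21930, AT2G36560 and AT5G63740), which is 8.47% of the set, against 0.0846% of all 8271 genes. None of the 7 genes with enough reads that RefSeq names as maternally expressed is in the set. The 250 bases before the annotated start are shown for 3 genes with low maternal shares in the CNS endosperm described further on, since the start region is where such genes are commonly regulated. They were picked as examples that hold TATAAA, and AT2G21930, AT4G05475 and TIE2, with shares as low, hold none on the gene's strand. The coordinates are of the RefSeq TAIR10.1 assembly, the sequences are given 5′ to 3′ on the gene's strand, and capitals mark TATAAA, the core of the TATA box, on that strand. The windows are chr2:16922087-16922336 (plus strand) for AT2G40520, a nucleotidyltransferase family gene, chr5:25511457-25511706 (minus) for AT5G63740, a RING/U-box gene, and chr4:11139359-11139608 (plus) for AT4G20800, a berberine-type oxidoreductase.
AT2G40520: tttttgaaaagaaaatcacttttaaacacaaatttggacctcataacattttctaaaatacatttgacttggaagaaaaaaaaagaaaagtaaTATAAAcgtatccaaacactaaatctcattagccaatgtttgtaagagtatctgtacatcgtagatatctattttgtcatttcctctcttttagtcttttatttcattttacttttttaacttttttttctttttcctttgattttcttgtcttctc
AT5G63740: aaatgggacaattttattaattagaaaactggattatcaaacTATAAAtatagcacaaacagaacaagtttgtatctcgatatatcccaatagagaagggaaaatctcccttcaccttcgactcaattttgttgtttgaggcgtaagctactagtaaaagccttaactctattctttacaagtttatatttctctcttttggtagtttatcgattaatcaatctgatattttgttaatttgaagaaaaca
AT4G20800: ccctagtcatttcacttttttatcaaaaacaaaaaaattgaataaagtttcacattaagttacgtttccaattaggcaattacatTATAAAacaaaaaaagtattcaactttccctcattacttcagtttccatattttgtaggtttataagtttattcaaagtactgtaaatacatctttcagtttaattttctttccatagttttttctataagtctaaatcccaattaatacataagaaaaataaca
The first base of TATAAA stood at -157, -208 and -165 from the start in these 3 windows, in the order shown. On either strand, TATAAA occurred in 35 of the 59 windows (59.3%) and in 46.6% of the 8186 windows of genes with enough allele reads. The G-box CACGTG occurred in 3 windows (5.08%, against 7.81%) and GGGCC, a part of TCP factor sites, in 5 (8.47%, against 22.5%). The CArG box, a motif of MADS factors searched in its strict form only, occurred in 0 of the 59 windows and in 2.85% of the 8186. Beside so low a share, 0 in 59 windows is not read as an absence. These matches are of letters only.

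Some of the genes have a close relative or a near neighbour among the 59 or the set-aside genes. VIM1 (chr1:21413981-21418115, minus strand) and VIM3 (chr5:15837178-15840678, minus) belong to the VARIANT IN METHYLATION family, which maintains CG methylation, and VIM5, one of the genes set aside, lies 1698 bases from VIM1. RBP47C (chr1:17424473-17427475, plus) and RBP47A (chr1:18356799-18360447, minus) code for RNA-binding proteins, and the set-aside gene RBP47C' lies 4958 bases from RBP47C. AT4G13490, a RING/U-box gene, lies 2683 bases from AT4G13495 and 12133 bases from SUVH9, whose protein binds methylated DNA. In all, 8 of the 59 genes lie within 30000 bases of another of them or of a set-aside gene. Neither relatives nor distances were counted over all 8271 genes, so this is not read as a trait of the set. The longest runs that RBP47C and VIM3 share with a relative are shown because a read that lies wholly within one cannot be placed on one gene, which bears on the counts of these genes. They are from exons, with the first-named gene's position at chr1:17427027-17427130 (plus) and chr5:15839396-15839502 (minus), and have 104 and 107 bases.
RBP47C and RBP47C': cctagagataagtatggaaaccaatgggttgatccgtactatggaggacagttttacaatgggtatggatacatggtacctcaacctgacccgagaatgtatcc
VIM3 and VIM4: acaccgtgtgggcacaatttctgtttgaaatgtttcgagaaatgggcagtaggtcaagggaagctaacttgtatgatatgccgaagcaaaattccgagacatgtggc
Stretches of 50 bases shared with another place covered 11.7% of the exon positions of RBP47C and 14.7% of those of VIM3, and more than 10% in no other of the 59 genes, with 0 such stretches in VIM1, so the values of these 2 genes carry that uncertainty. A further 7 genes (ULP1D, MKK5, ARABIDILLO-2, AT4G10730, AT1G67820, AT1G75370 and AT4G17270) overlap an annotated gene on the other strand. The sources used here do not say whether counting was by strand, and without that the reads of overlapping partners cannot be told apart.

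In the 4 standard endosperm libraries that chose the genes, the mean maternal share of the 59 ran from 0% to 34.0% with a median of 13.6%, whereas the median over all 8271 genes was 66.4%. The mean was below 10% for 22 genes, 10% to 20% for 17, 20% to 30% for 16 and 30% or more for 4. The genes had 65 to 3645 allele reads over the 4 libraries, with a median of 350. No maternal read was found for 3 of them. These were AT5G54350, a C2H2 zinc finger gene, with 0 of 283 reads, which allows a maternal share of up to 1.06%, AT2G21930, an F-box-associated gene, with 0 of 65 (up to 4.62%), and AT3G58360, a TRAF-like gene, with 0 of 70 (up to 4.29%). Limits for 0 reads are given throughout as 3 divided by the number of reads, a one-sided 95% bound. They lie below the upper ends of the exact Clopper-Pearson 95% intervals given for other single shares. For these 3 genes, in the same order, those ends were 1.30%, 5.52% and 5.13%. Limits and intervals cover counting error only.

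Among genes for DNA and chromatin proteins, AT3G11310 (Myb/SANT-like) had maternal shares of 6.29% and 3.51% in Col x C24, against 14.6% and 22.1% in C24 x Col endosperm, and AT5G10950 (Tudor/PWWP) had 2.78% and 2.51%, and 8.17% and 9.88%. AGL92, a type I MADS-box factor, had 6.98% and 4.02% in Col x C24, against 36.6% and 39.9% in C24 x Col, so that its highest value stands just inside the limit. The same order held for AT1G10790, a hydroxyproline-rich glycoprotein gene, with 0% and 3.52% in Col x C24, against 30.1% and 27.1% in C24 x Col. In these 4 genes the maternal share was higher in both libraries with a C24 mother than in either with a Col mother. SUVH9 had the opposite order, with 18.8% and 20.5% in Col x C24, against 16.0% and 18.1% in C24 x Col, a smaller gap.

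Among signalling genes, AT5G24430, of the calcium-dependent protein kinase family, had 17.9% and 13.0% in Col x C24, against 20.4% and 20.5% in C24 x Col endosperm, and MVQ2, a VQ-motif protein, had 17.4% and 25.8%, and 22.6% and 21.7%. MKK5, a MAP kinase kinase, had 17.2% and 3.75%, and 3.90% and 2.97%. Among protein turnover genes, ULP1D, a protease of the small modifier SUMO, had 9.90% and 4.58%, and 4.40% and 8.65%, and the F-box gene AT1G60410 had 4.52% and 9.66%, and 3.13% and 3.10%. In both turnover genes all 4 libraries stayed under 10%. The genes just inside the limit by their highest share were NFD5, NAC095 and AT2G25560 at 40% and AGL92 at 39.9%. Those just outside were ATE2F2 at 40.6%, RCAR3 at 40.9%, and PRL1 and AT5G62830 at 41.7%. A limit of 35% would have kept 50 genes and one of 45% would have given 71.

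**Figure D1:**
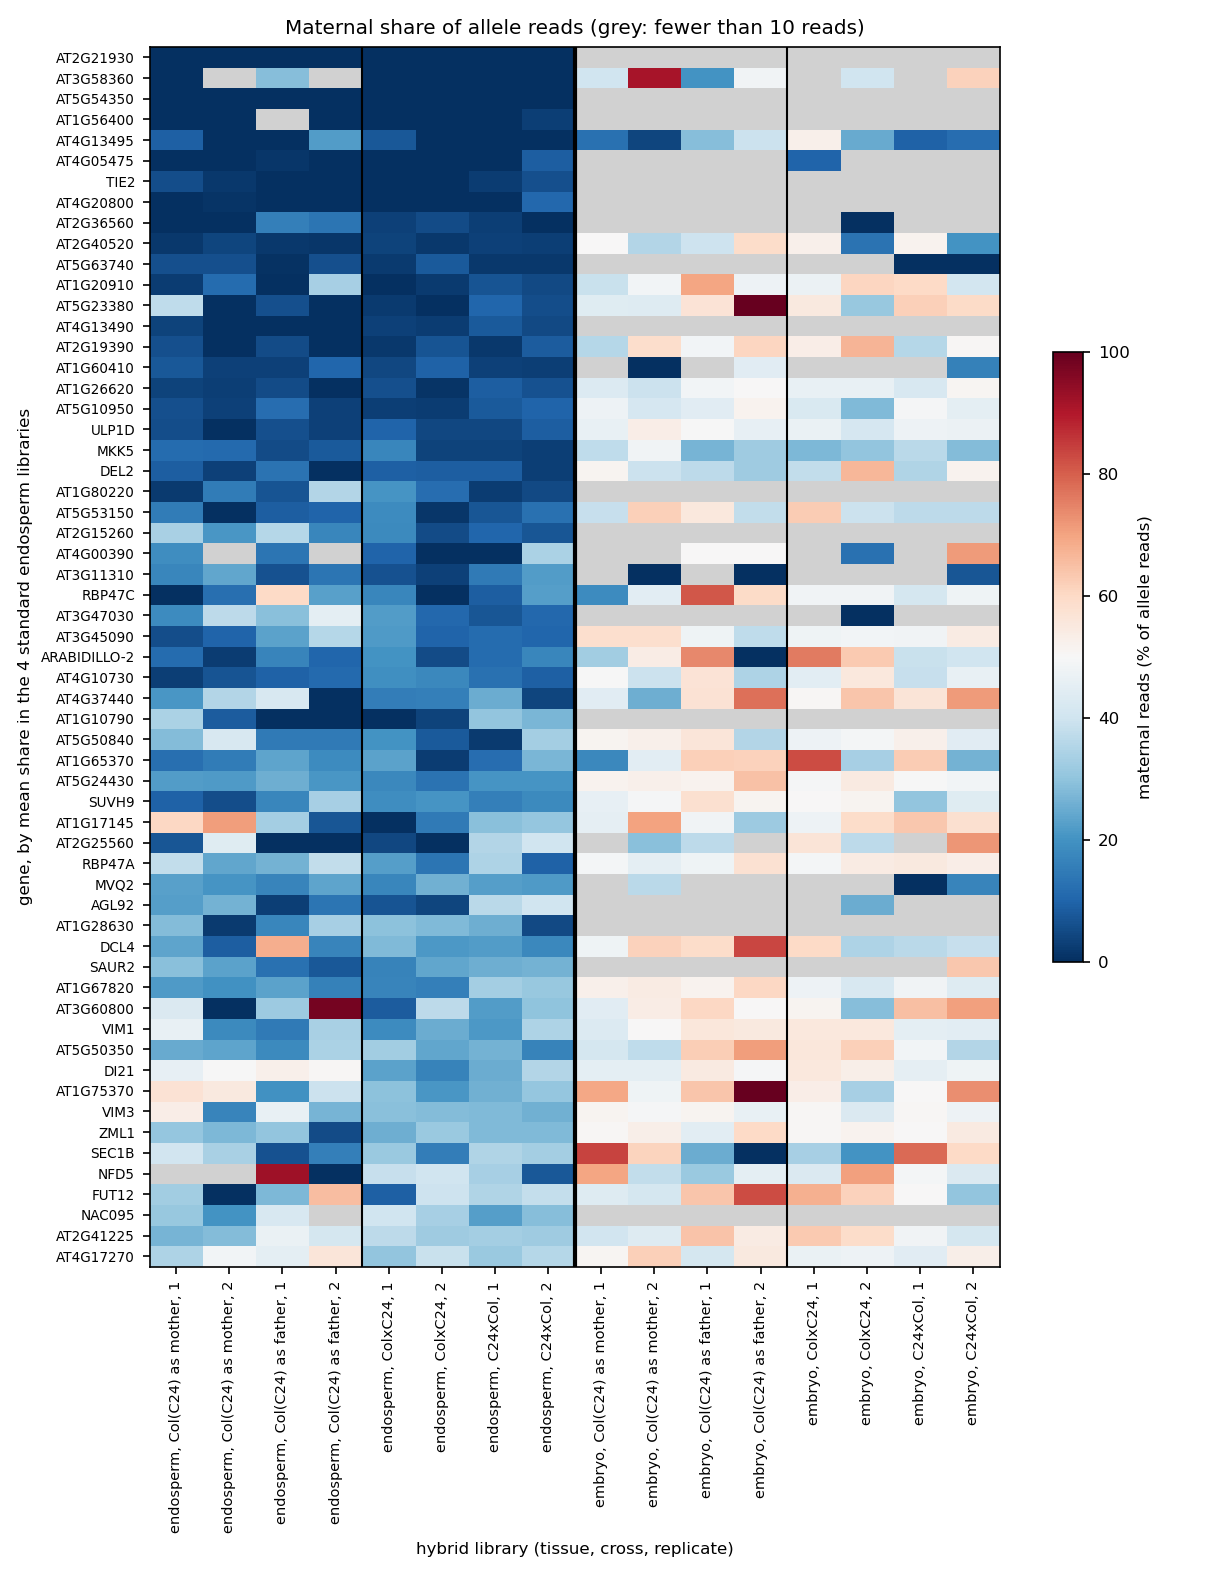
Maternal share of allele reads (colour, percent) for each of the 59 genes (rows, ordered by their mean in the 4 standard endosperm libraries) in the 16 hybrid libraries (columns, tissue, cross and replicate), with grey where a gene had fewer than 10 allele reads. The endosperm columns on the left are blue (under 50%) for most genes, while the embryo columns on the right are pale (near 50%) or grey.

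The CNS hybrids gave 4 endosperm libraries that the choice of genes had not used, and in them most of the genes that could be tested were again read mostly from the father. Of 54 genes with at least 10 allele reads in each library, 38 were called paternal beyond the 2 to 1 dosage and 0 maternal, which is 70.4% against 1.13% of all 9219 genes tested called paternal and 1.18% called maternal (1.24% and 1.21% of the genes that also had the reads the choice of the 59 asked for; edgeR quasi-likelihood test on allele counts, adjusted p under 0.05). All 54 had a negative log2 difference of the maternal from the paternal allele, set against the dosage, with a median of -3.59 for the 54 and 0.03 for all genes, and 51 had an unadjusted p under 0.05. The mean maternal share of the 54 had a median of 16.3%, against 65.8% over all genes tested. It was below 10% for 19 of them, and 38 (70.4%) had 40% or less in each of the 4 libraries, as had 0.748% of all genes tested. The mean was 40% or less for 49 of the 54 and over 50% for 0. Single libraries went higher in some genes. AT1G17145 had 60.3% and 71.1% with Col(C24) as mother, against 32.9% and 7.06% as father, and DCL4 had 68.0% with Col(C24) as father in replicate 1.

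AT2G40520 (chr2:16922337-16925961, plus strand) had the smallest adjusted p. Its maternal share was 1.88% and 4.30% with Col(C24) as mother and 1.86% and 1.48% with Col(C24) as father, which pooled to 55 of 2484 reads (2.21%, interval 1.67% to 2.87%). All 4 libraries were low, and the log2 difference was -6.44 (SE 0.30, adjusted p = 2.8e-07). AT5G24430 had 22.3% and 21.7% with Col(C24) as mother and 25.7% and 20.9% as father, a mean of 22.6% ± 2.14 (SD, n = 4). Its log2 difference was -2.77 (SE 0.16, adjusted p = 1e-06). The 4 values of this kinase gene were close together although the maternal copy was read in each. MVQ2 was like it, at 22.8% and 20.5%, and 17.0% and 23.6%, with a log2 difference of -2.92 (SE 0.17, adjusted p = 1.1e-06).

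AT5G10950, the Tudor/PWWP gene, had 6.19% and 3.18% with Col(C24) as mother and 11.8% and 3.28% as father (log2 difference -5.08, SE 0.36, adjusted p = 5e-06). AT3G11310 had 17.3% and 23.9%, and 6.55% and 13.4% (-3.58, SE 0.31, adjusted p = 3.1e-05), so its share was again higher in both libraries with a C24 nucleus in the mother. AGL92 did the same, at 22.3% and 26.3%, and 3.05% and 13.4% (-3.60, SE 0.40, adjusted p = 0.00022), as did AT1G10790, at 34.3% and 8.37%, and 0% and 0% (-6.95, SE 0.84, adjusted p = 0.00069), while AT5G10950 did not. SUVH9 had 9.40% and 5.50%, and 17.2% and 33.3% (-3.64, SE 0.52, adjusted p = 0.0015), so its share was again lower in both libraries with a C24 nucleus in the mother. DEL2, an atypical E2F factor, had 8.81% and 3.35%, and 13.2% and 0% (-5.13, SE 0.65, adjusted p = 0.00066). The methylation factor VIM1 was called with wider scatter, at 46.3% and 18.0%, and 14.6% and 33.8% (-2.45, SE 0.44, adjusted p = 0.0094). VIM3, at 53.4% and 17.1%, and 46.1% and 26.6%, was not called (-1.95, SE 0.49, adjusted p = 0.077).

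In protein turnover, ULP1D had 5.56% and 0% with Col(C24) as mother and 5.92% and 3.29% as father (-5.81, SE 0.53, adjusted p = 4.2e-05). AT1G60410 had 7.59% and 3.19%, and 3.34% and 10.2% (-5.08, SE 0.35, adjusted p = 4.2e-06), and AT5G63740 had 6.08% and 6.02%, and 0.685% and 6.19% (-5.34, SE 0.37, adjusted p = 4.8e-06). In all 3 the highest library was at 10.2% or below. In signalling, MKK5 had 11.7% and 10.99%, and 5.24% and 7.89% (-4.40, SE 0.42, adjusted p = 5.3e-05), and the protein phosphatase 2C gene AT1G67820 had 21.5% and 19.7%, and 23.2% and 16.4% (-2.99, SE 0.23, adjusted p = 9.2e-06). The order that AT1G67820 had in the standard hybrids did not recur here. TIE2, named for binding TCP factors, had 5.79% and 1.68%, and 0% and 0% (-7.97, SE 0.67, adjusted p = 4.3e-05). RBP47A had 37.8% and 24.2%, and 26.4% and 37.7% (-2.14, SE 0.39, adjusted p = 0.0092), a smaller difference than those of the other called genes named here.

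Few or no maternal reads were found for 5 genes, for which the share itself is the measure. AT5G54350 had 0 of 668 reads over the CNS endosperm libraries, which allows up to 0.449%, AT1G56400, an F-box gene, had 0 of 138 (up to 2.17%) and AT2G21930 had 0 of 123 (up to 2.44%). AT4G05475 had 2 of 435 (0.460%, interval 0.0557% to 1.65%) and AT4G20800 had 2 of 348 (0.575%, interval 0.0697% to 2.06%). With the 2 tested genes that had no maternal read put at their bound, which lies below the median in both, the median of the 54 was -3.59.

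The other 16 tested genes were not called. DI21, a drought-induced gene, had 46.0% and 49.7% with Col(C24) as mother and 52.6% and 50.5% as father, a mean of 49.7% ± 2.78 (SD, n = 4) that was the highest of the 54 (log2 difference -1.02, SE 0.42, adjusted p = 0.62). In the standard endosperm that chose it, DI21 had 23.1% and 16.7% in Col x C24, against 25.0% and 35.5% in C24 x Col, and the difference between the sets was not tested. AT3G60800, a DHHC zinc finger gene, ran from 0% of 24 reads to 97.8% of 45 in one library, Col(C24) as father replicate 2, and its difference of -1.42 (SE 1.98) turned to 0.38 without Col(C24) as father replicate 1. A further 5 genes had too few reads to test. Of these, NFD5 had 92.3% of 13 reads, 66.7% of 6 and 0% of 22 in 3 libraries, AT3G58360 had 28.6% of 28 and 0% of 11 in 2 libraries, and AT4G00390, NAC095 and AT1G56400 had 8 reads in one library each, with AT4G00390 not listed in another. The count of 38 depended on single libraries and on the terms of the fit. Without Col(C24) as mother replicate 2, it was 22, and 21 genes were called whichever library was left out. Without a term for the Col and C24 alleles it was 17, and 15 genes were called in all 10 alternatives, those that leave out a library included.

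Most of the genes that could be tested in embryo were read about equally from both parents there. In the standard hybrids, 2 of 36 genes with enough reads were called paternal and 0 maternal (0.0518% and 1.0% of all 9654 genes, 0.0419% and 1.34% of those with the reads of the choice), and the median of their mean shares was 49.9%, against 51.0% for all genes tested. In the CNS hybrids, 1 of 37 was called paternal and 0 maternal (0.0102% and 0.0511% of all 9794, 0.0141% and 0.0703% of those with the reads), with a median of 49.9%, against 50.5%. The mean share lay between 40% and 60% for 32 of the 36 and 31 of the 37. Under 40 allele reads over the 4 embryo libraries were found for 18 of the 59 genes in the standard and 19 in the CNS set, AT5G54350, AT4G20800 and TIE2 among them, and these were not tested.

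A further 5 genes in the standard and 3 in the CNS embryos had 40 reads or more in all but fewer than 10 in at least one library, and were not tested either. In standard embryo, pooled over the libraries, AT3G11310 had 4 maternal of 46 reads (8.70%, interval 2.42% to 20.8%), MVQ2 had 13 of 84 (15.5%, interval 8.51% to 25.0%) and AT1G60410 had 9 of 47 (19.1%, interval 9.15% to 33.3%). The reads of these 3 in the embryo libraries were thus mostly paternal, as far as they go. Their mean levels in selfed standard seeds were 1.22, 0.925 and 0.862 CPM in embryo and 63.9, 55.6 and 37.5 CPM in endosperm. The endosperm markers summed to 82.0 to 161 CPM in standard embryo. The part of endosperm transcripts in these embryo shares was not tested. AT4G00390 had 21 of 45 (46.7%, interval 31.7% to 62.1%) and AT2G25560 had 33 of 62 (53.2%, interval 40.1% to 66.0%). In CNS embryo AT3G11310 had 0 of 54, which allows up to 5.56%, AT2G25560 had 20 of 66 (30.3%, interval 19.6% to 42.9%) and AT4G00390 had 19 of 41 (46.3%, interval 30.7% to 62.6%). Among those with fewer reads in standard embryo, AT5G63740 had 1 maternal of 35 reads and AT3G58360 had 16 of 32.

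AT4G13495, the non-coding RNA at chr4:7842967-7846774 (plus strand), was paternal in both embryo sets. Its maternal share was 52.4% and 24.7% in Col x C24, against 9.50% and 11.8% in C24 x Col embryo (log2 difference -1.90, SE 0.17, adjusted p = 6.5e-11). In CNS embryo it was 12.8% and 4.02% with Col(C24) as mother and 28.7% and 39.4% as father (-2.22, SE 0.26, adjusted p = 0.039). In both sets the embryos with a C24 nucleus in the mother had the lower shares. The CNS call was lost without either library with Col(C24) as mother and under the replicate block, each of which left 0 genes called, and without Col(C24) as father replicate 1 there were 2 genes called maternal. MKK5 was the other call in standard embryo, with 27.5% and 30.4% in Col x C24, against 36.4% and 28.4% in C24 x Col (-1.20, SE 0.22, adjusted p = 0.00051). It was lost without C24 x Col replicate 2, which left 1 gene called. Without a term for the Col and C24 alleles, 0 genes were called in either embryo set, AT4G13495 included, although its standard call held whichever library was left out. In CNS embryo MKK5 had 37.3% and 48.1%, and 26.7% and 32.4%, with no call. MKK5 overlaps a gene on the other strand.

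The difference between the tissues was tested itself in the CNS hybrids, as an interaction of parent and tissue beyond the change in dosage. Of 35 genes with enough reads in all 8 libraries, 19 (54.3%) had a lower maternal share in endosperm than in embryo relative to the genome dosage of each tissue and 0 a higher one, against 0.651% and 0.14% of all 7838 genes (0.737% and 0.159% of those with the reads). All 35 differences were negative, with a median of -3.27 for the 35 and -0.04 for all genes, and 33 had an unadjusted p under 0.05. AT2G40520, at 1.48% to 4.30% in endosperm, had 50% and 35.2% with Col(C24) as mother and 39.7% and 59.2% as father in embryo (interaction -6.23, SE 0.44, adjusted p = 0.00014). AT5G24430, at 20.9% to 25.7% in endosperm, had 51.9% and 52.5%, and 51.6% and 64.8% in embryo (-3.09, SE 0.23, adjusted p = 0.00014). In neither gene did the values of the tissues overlap.

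The same held for ULP1D, whose share in endosperm was at most 5.92% and in embryo 46.1% and 53.2%, and 49.9% and 46.1% (-5.66, SE 0.54, adjusted p = 0.00057). AT1G26620, a gene of unknown function (DUF863 family), had at most 5.44% in endosperm and 43.0% and 39.1%, and 48.8% and 50.2% in embryo (-6.02, SE 0.67, adjusted p = 0.0015). AT5G10950 had at most 11.8% in endosperm and 47.6% and 41.7%, and 44.4% and 51.8% in embryo (-4.87, SE 0.45, adjusted p = 0.00048). MKK5, the gene that leaned to the father in standard embryo, was still lower in endosperm (-3.55, SE 0.45, adjusted p = 0.0033). VIM1 (-2.45, SE 0.41, adjusted p = 0.019), RBP47A (-2.13, SE 0.31, adjusted p = 0.011) and SUVH9 (-3.71, SE 0.54, adjusted p = 0.01) were called too. DI21 was called with the smallest difference of the 19 (-0.93, SE 0.17, adjusted p = 0.033), and its share itself was alike in the tissues, at 46.0% to 52.6% in endosperm and 44.9% to 54.7% in embryo, so that call rests on the dosage. AT4G13495, low in both tissues, was not called (-2.21, SE 0.84, adjusted p = 0.69). The 19 fell to 11 without embryo Col(C24) as father replicate 1, to 12 without its replicate 2 and to 10 without either embryo library with Col(C24) as mother. Called in every one of these fits were 10 genes (AT1G26620, ULP1D, AT1G67820, AT2G40520, AT2G41225, MKK5, AT3G45090, AT5G10950, AT5G24430 and AT5G50350).

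**Figure D2:**
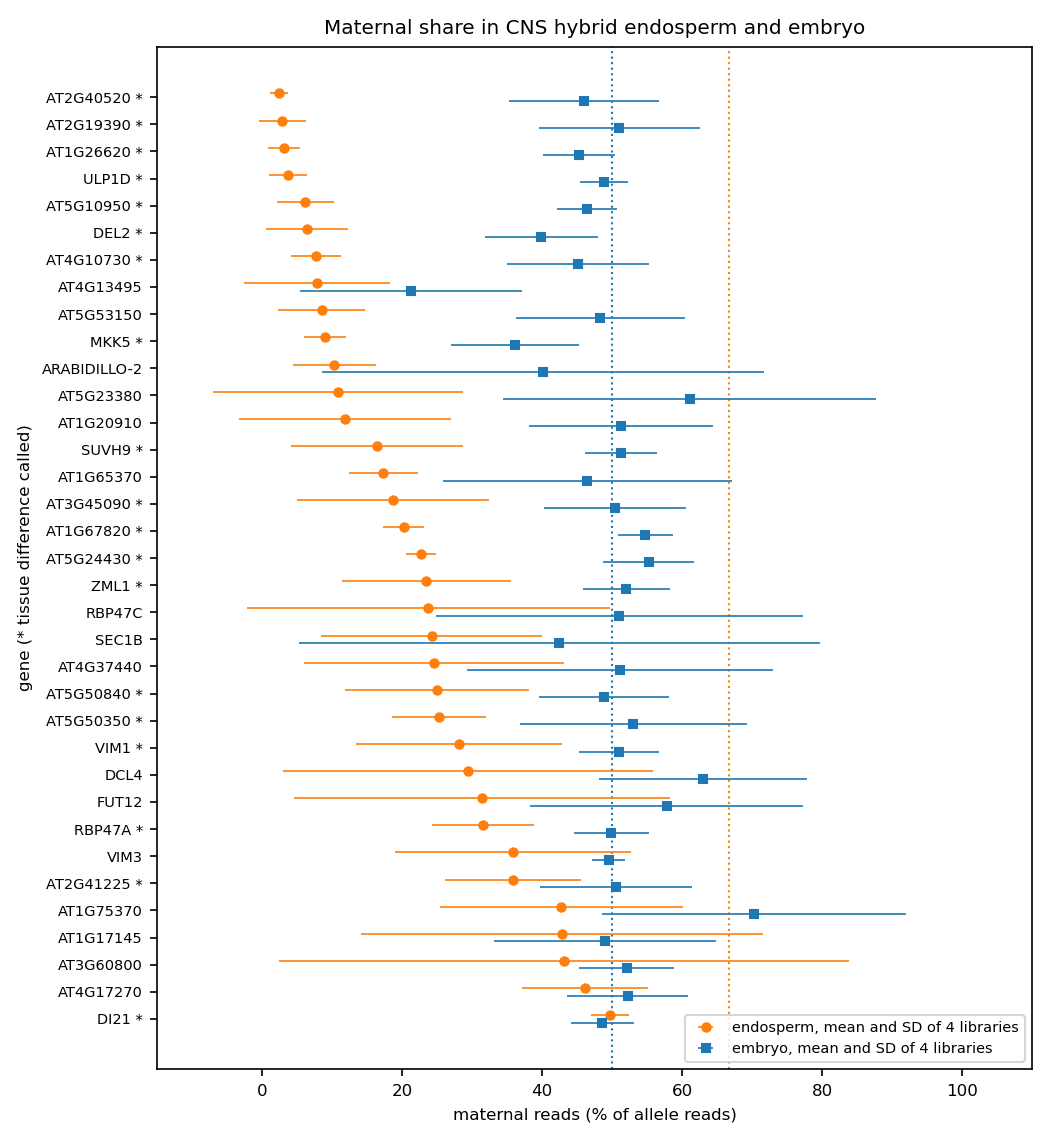
Mean maternal share (percent of allele reads, with SD over 4 libraries) of the 35 genes read in both tissues of the CNS hybrids, endosperm as orange circles and embryo as blue squares, with dotted lines at the shares the dosage gives and asterisks at the 19 genes called in the test of the difference beyond dosage. AT2G40520 stands at 2.38% in endosperm and 46.0% in embryo.

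The level of the transcripts differed between the tissues as well, and in both directions. In CNS seeds 37 of the 59 genes were higher in endosperm than in embryo, 13 were lower and 9 were not called, where 36.8% and 34.1% of all 21816 genes were called higher and lower. In selfed standard seeds 36 were higher and 14 lower, where 33.2% and 33.7% of all 19525 genes were. Among genes with the allele reads that the choice of the 59 asked for, 46.3% were higher and 31.3% lower in CNS seeds and 40.6% and 27.7% in standard seeds, and the 59 too had to have allele reads in endosperm to be chosen. The median log2 difference of the 59 was 1.45 in CNS and 1.20 in standard seeds. In all, 36 genes were higher in both sets, 13 were lower in both and 0 changed direction. The same overlap was not counted over all genes, so it is not read as a trait of the 59. In bulk tissue, fewer cells of a type and less RNA per cell cannot be told apart.

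The genes that were higher in endosperm include MVQ2, AGL92, DCL4 and the F-box genes AT1G56400, AT1G60410 and AT3G47030. MVQ2 (AT2G33780) had 10.7, 59.6 and 176 CPM (lowest, median and highest of 8) in CNS endosperm and 0, 0.0346 and 4.15 CPM in embryo, with means of 75.1 ± 58.6 and 0.670 ± 1.43 (SD, n = 8 each), and a log2 difference of 7.41 (SE 0.97, adjusted p = 7.6e-06). AGL92 had 11.3, 15.5 and 24.6 CPM in endosperm and 0, 0.0899 and 0.522 CPM in embryo (6.95, SE 0.57, adjusted p = 6.9e-08). The tissues did not overlap in either gene. AT1G60410 had 14.5, 29.3 and 58.4 CPM in endosperm and 0.0922, 0.255 and 0.928 CPM in embryo (6.16, SE 0.48, adjusted p = 4e-08). AT2G40520 had 64.7, 95.04 and 149 CPM in endosperm and 2.96, 4.58 and 9.14 CPM in embryo (4.27, SE 0.28, adjusted p = 7.3e-09), and AT5G24430 had 44.7, 57.3 and 90.3 CPM in endosperm and 17.9, 20.3 and 27.4 CPM in embryo (1.45, SE 0.16, adjusted p = 1e-06). DCL4, the Dicer that cuts secondary small interfering RNAs, had 20.6, 26.6 and 32.1 CPM in endosperm and 9.43, 12.3 and 16.6 CPM in embryo (1.07, SE 0.11, adjusted p = 9.2e-07). In selfed standard seeds the log2 differences were 6.06 for MVQ2, 5.30 for AGL92, 5.35 for AT1G60410, 3.94 for AT2G40520, 1.56 for AT5G24430 and 0.58 for DCL4, and these 6 were called there too. The standard call of DCL4 was lost without embryo replicate 2 of selfed Col or selfed C24 and without endosperm replicate 1 of selfed C24 (adjusted p of 0.056 to 0.059), while the other 5 were called whichever library was left out.

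The 13 genes that were lower in endosperm in both sets were RBP47A, RBP47C, VIM1, VIM3, ULP1D, ZML1, DI21, NFD5, AT1G17145, AT4G10730, AT4G13495, AT5G50350 and AT5G50840. VIM1 had 25.9, 35.1 and 62.6 CPM in CNS endosperm and 198, 313 and 392 CPM in embryo (log2 difference -3.01, SE 0.19, adjusted p = 6.2e-09). DI21 had 11.6, 18.7 and 35.8 CPM in endosperm and 305, 321 and 467 CPM in embryo (-4.20, SE 0.18, adjusted p = 2.6e-10). RBP47A had 43.2, 60.5 and 81.5 CPM in endosperm and 216, 242 and 277 CPM in embryo (-2.04, SE 0.12, adjusted p = 3.2e-09). The 3 genes did not overlap between the tissues. The summed embryo markers of the CNS endosperm libraries had a median of 165 CPM, against 1184 CPM in CNS embryo, and their part in the allele shares of VIM1, DI21, RBP47A and the others was not tested. ULP1D was lower in endosperm as well, with 17.6, 24.6 and 31.6 CPM in endosperm and 30.03, 39.3 and 51.3 CPM in embryo (-0.78, SE 0.13, adjusted p = 7.9e-05), while its maternal share in endosperm was at most 5.92%. MKK5, with 9.84, 20.7 and 30.9 CPM in endosperm and 11.6, 16.9 and 19.3 CPM in embryo, was not called (0.28, SE 0.19, adjusted p = 0.21).

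**Figure D3:**
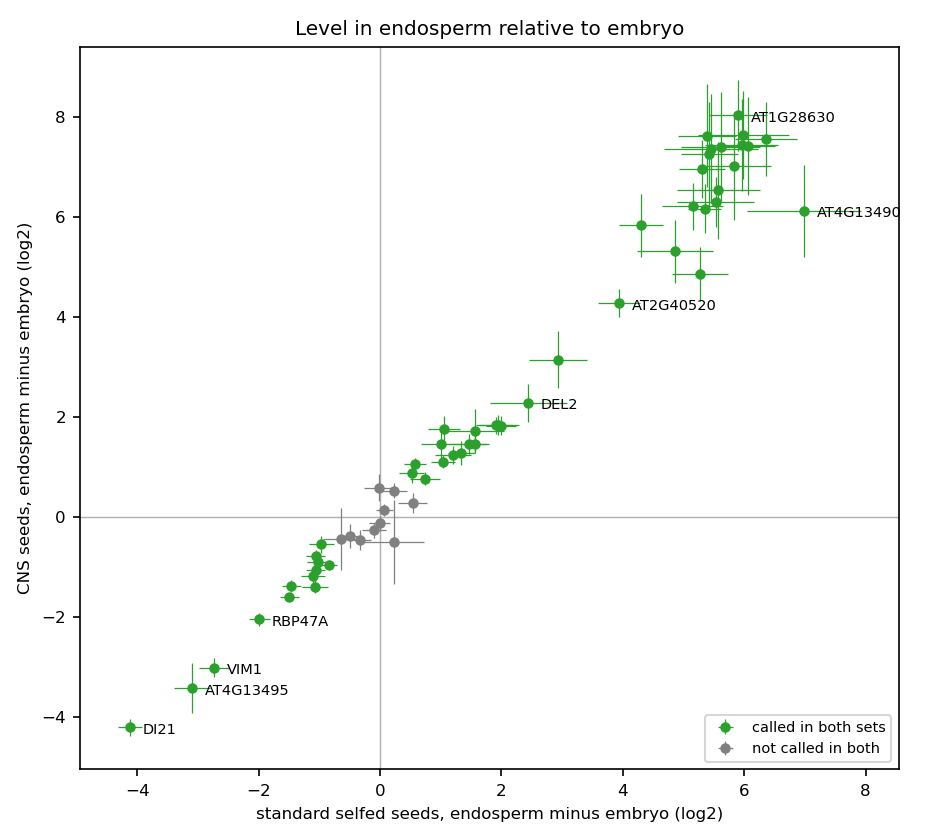
Log2 difference of the level in endosperm from that in embryo for each of the 59 genes, in selfed standard seeds (horizontal axis) and in CNS seeds (vertical axis), with bars for the SE. The genes run from DI21 at -4.12 and -4.20 to genes such as MVQ2 at 6.06 and 7.41, and no gene was called in opposite directions.

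**Figure D4:**
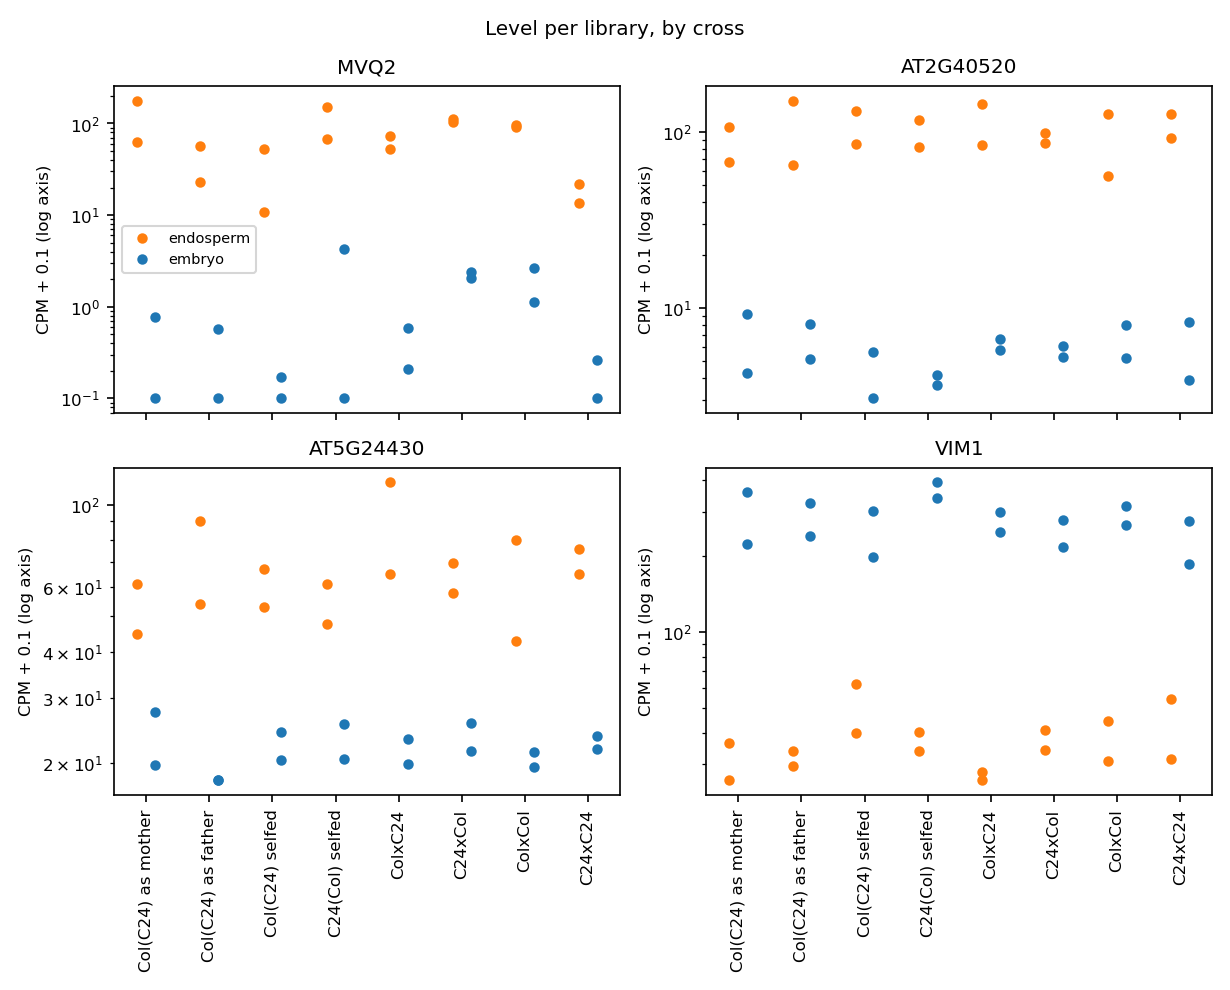
Level per library (CPM plus 0.1, log axis) of MVQ2, AT2G40520, AT5G24430 and VIM1 by cross, endosperm in orange and embryo in blue, 2 libraries per cross and tissue. MVQ2 endosperm is lowest in Col(C24) selfed replicate 1 (10.7 CPM) and selfed C24 (13.3 and 21.6 CPM) and VIM1 is higher in every embryo library than in any endosperm library.

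The endosperm level of some of the genes differed with the nuclear genome. The sources used here do not say whether mapping favoured Col reads. The counts behind these levels carry no correction for it, and its part in the differences was not tested. Between selfed Col and selfed C24 endosperm, 14 of the 59 were higher and 3 lower in Col, where 4.94% and 3.02% of all 21210 genes were (7.49% and 3.81% of genes with enough allele reads). In the CNS lines the same nuclei sit in the other cytoplasm. There, 11 were lower and 2 higher in selfed Col(C24), with the C24 nucleus, than in selfed C24(Col), where 4.24% and 3.66% of all genes were (5.86% and 4.54%). With the replicate number as a block, 18 were lower and 4 higher. With these groups fitted alone, 1 (AT1G56400) was lower and 0 were higher, so all other CNS calls between these lines were lost. Called higher with the Col nucleus in both comparisons were 7 genes (AT1G10790, AT1G56400, AT1G67820, AT1G80220, AT4G13490, DEL2 and AT5G53150), and 2 (AT1G17145 and AT3G11310) were higher with the C24 nucleus in both. The share of all genes called in both comparisons was not counted. Of the 59, 54 (91.5%) were higher with the same nucleus in both comparisons, called or not, as were 74.9% of all 21210 genes.

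AT1G56400 had 27.6 and 51.9 CPM in selfed Col endosperm and 0.621 and 0.0557 CPM in selfed C24 (log2 difference 6.91, SE 0.90, adjusted p = 0.00027). It had 0.481 and 0.343 CPM in selfed Col(C24) and 11.4 and 20.2 CPM in selfed C24(Col) (-5.20, SE 0.80, adjusted p = 0.00099). This F-box gene was at 0.621 CPM or below in every selfed library with a C24 nucleus. DEL2 (AT5G14960) had 188 and 183 CPM in Col and 19.0 and 21.9 CPM in C24 (3.15, SE 0.42, adjusted p = 0.00031), and 14.3 and 30.3 CPM in Col(C24) and 103 and 159 CPM in C24(Col) (-2.52, SE 0.41, adjusted p = 0.0014). AT1G80220 (DUF1644 family) had 23.0 and 42.8 CPM in Col and 2.07 and 1.78 CPM in C24 (4.06, SE 0.64, adjusted p = 0.0012), and 0.883 and 3.61 CPM in Col(C24) and 14.2 and 15.6 CPM in C24(Col) (-2.68, SE 0.60, adjusted p = 0.013). AT3G11310 went the other way, with 35.3 and 31.5 CPM in Col and 76.9 and 112 CPM in C24 (-1.53, SE 0.24, adjusted p = 0.0012), and 97.2 and 82.2 CPM in Col(C24) and 33.1 and 39.7 CPM in C24(Col) (1.34, SE 0.24, adjusted p = 0.0028). The libraries of the 2 nuclei did not overlap in any of these 4 genes. AT2G36560, an AT-hook gene, was called in the CNS lines alone of the 2 comparisons, with 2.59 and 0.872 CPM in Col(C24) and 15.2 and 28.0 CPM in C24(Col) (-3.60, SE 0.69, adjusted p = 0.0047), as was the F-box gene AT3G47030 with 6.87 and 6.32 CPM and 19.1 and 30.3 CPM (-1.87, SE 0.32, adjusted p = 0.0021), and whether the comparisons differ was not tested.

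The counts depended on single libraries and on the settings. Leaving out replicate 1 or 2 of selfed Col took the 14 higher genes to 7 or 8, and leaving out replicate 1 or 2 of selfed C24 took them to 4 or 6, with 1 lower gene in each case, AT3G11310. Called higher in all 4 were AT1G56400, AT1G80220, AT5G10950 and DEL2. In the CNS lines the 11 lower genes became 5 without Col(C24) replicate 1 or C24(Col) replicate 2, and the 2 higher ones became 4 without C24(Col) replicate 1 and 1 without any other of the 4. Lower in all 4 were AT1G56400, AT2G36560, AT3G47030 and DEL2. The summed seed coat markers ranged from 176 to 502 CPM over the CNS and 263 to 874 CPM over the standard endosperm libraries, and their part in these levels was not tested.

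**Figure D5:**
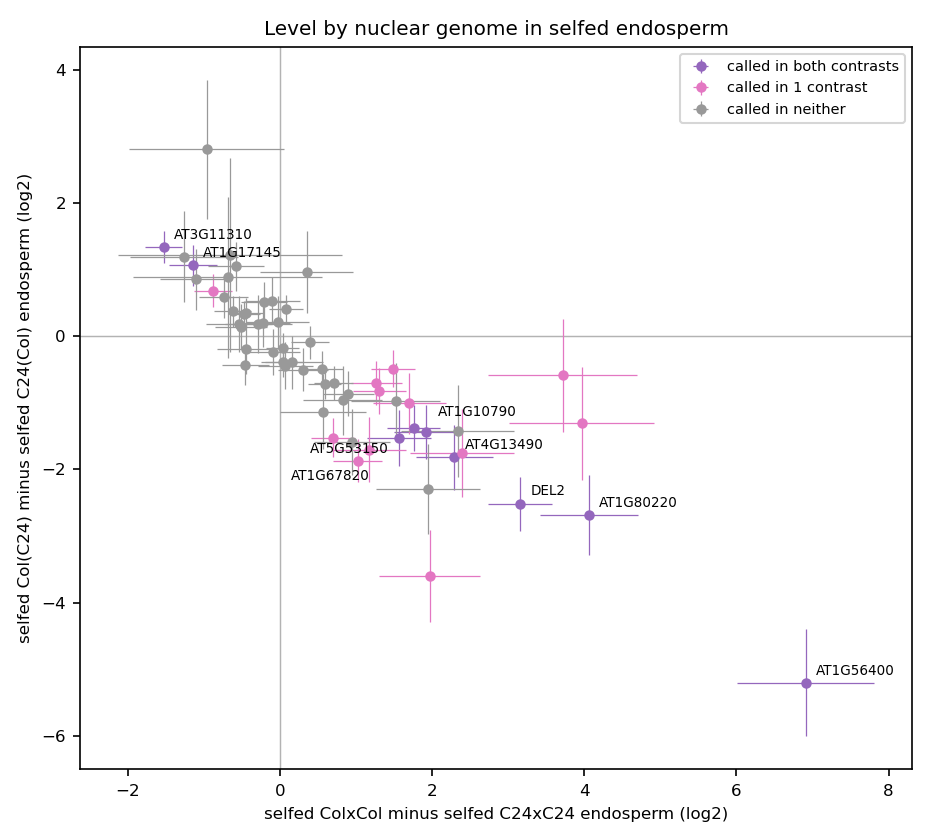
Log2 difference of the endosperm level between selfed Col and selfed C24 (horizontal axis) and between selfed Col(C24) and selfed C24(Col) (vertical axis) for the 59 genes. Genes higher with the Col nucleus in both comparisons lie in the lower right, with AT1G56400 at 6.91 and -5.20 the farthest out, and AT3G11310 lies in the upper left at -1.53 and 1.34.

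The use of Col(C24) as mother or as father left no call among the 59. The group with Col(C24) as father joins crosses with different mothers. C24 made up 0.0285% of its endosperm organelle reads in replicate 1 and 99.9% in replicate 2. Its spread therefore includes a change of mother and cytoplasm, and the contrast is not of cross direction alone. Between Col(C24) as mother and Col(C24) as father, 0 genes were higher and 0 lower, where 0.231% and 0.0943% of all 21210 genes were (0.268% and 0.073% of those with the reads), 12 of the 59 had an unadjusted p under 0.05, and DESeq2 called 0. With the replicate block 3 were higher and 1 lower. TIE2 (AT2G20080) had 19.3 and 31.4 CPM with Col(C24) as mother and 4.19 and 6.77 CPM with Col(C24) as father (log2 difference 2.19, SE 0.71, adjusted p = 0.23). In the standard hybrids TIE2 had 4.26 and 6.88 CPM in Col x C24, against 21.9 and 23.3 CPM in C24 x Col. In both sets it was thus higher where the father brought the Col nucleus. The CNS difference was not called, and the standard one was not tested. AT4G37440, an uncharacterized protein gene, had 71.2 and 91.1 CPM with Col(C24) as mother and 43.2 and 43.9 CPM as father (0.88, SE 0.25, adjusted p = 0.17).

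Between hybrid and selfed CNS endosperm the edgeR test called none of the 59, with 0 higher and 0 lower where 0.693% and 0.00471% of all genes were (0.742% and 0.0% of those with the reads), 7 with an unadjusted p under 0.05, and 1 called higher by DESeq2. AT4G13490 came nearest, with 6.08 and 8.42 CPM with Col(C24) as mother and 4.46 and 4.43 CPM as father in hybrids, and 1.20 and 0.872 CPM in Col(C24) and 3.90 and 3.68 CPM in C24(Col) selfed (log2 difference 1.54, SE 0.34, adjusted p = 0.055). Without C24(Col) replicate 1 or Col(C24) replicate 2 of the selfed libraries, 1 gene was called higher.

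Other imprinted genes and relatives were read in the same libraries. Of the 12 set-aside genes, 10 could be tested in CNS endosperm and 9 were paternal (AAE12, BSU1, HDG3, ORTHL, PHE1, PKR2, RBP47C', VIM5 and YUC10), with a median log2 difference of -5.55, against 0.03 for all genes. Of 3 of those tested in standard embryo, VIM5 was paternal, and of 3 tested in the interaction, ORTHL and RBP47C' were lower in endosperm. Their level was higher in endosperm for 10 of 11 and lower for RBP47C' in both sets, and 4 of 11 were higher in selfed Col than C24, with 0 called in the CNS lines. Beside this list and those that follow, 1.13% of all genes tested were called paternal and 1.18% maternal in CNS endosperm, and 0.0518% and 1.0% in standard embryo. In the interaction, 0.651% of all genes were lower in endosperm and 0.14% higher. By level, 33.2% of all genes tested were higher in endosperm in standard and 36.8% in CNS seeds. In selfed endosperm, 4.94% of all genes were higher in Col than C24 and 4.24% lower in Col(C24) than C24(Col). Of 6 further genes reported elsewhere as paternally expressed, 3 could be tested: ADM was paternal, while MYB3R2 and SUVH8 were maternal in these crosses. All 6 were higher in endosperm in both sets, and ADM and TAR1 were higher with the Col nucleus in both selfed comparisons.

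Of 11 genes known as maternally expressed, 8 were tested in CNS endosperm, and FIS2, HDG9 and SDC were maternal and 0 paternal. In standard embryo, SDC was maternal among 3 tested, and 0 of 4 were called in the interaction. All 9 tested in standard and all 11 in CNS seeds were higher in endosperm, HDG8 and NRPD1 were higher in selfed Col than C24, and FWA, MEA and NRPD1 were lower in selfed Col(C24) than C24(Col). Of 18 type I MADS-box genes, which hold AGL92, the set-aside genes PHE1 and AGL38 (also called PHE2) and AGL36 of the maternally expressed list, 6 were tested in CNS endosperm and AGL23, AGL86, AGL92 and PHE1 were paternal, with a median log2 difference of -2.91, against 0.03 for all genes. The 1 gene tested in embryo and in the interaction was not called. Of these, 10 of 11 in standard and 12 of 14 in CNS seeds were higher in endosperm and 0 lower. Of the 14, AGL61, AGL91 and PHE2 were higher in selfed Col than C24, and AGL80 was lower in selfed Col(C24) than C24(Col).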

How the data were processed

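Gene counts and allele counts of endosperm and embryo RNA were used as the authors deposited them. The authors deposited whole-number read counts per gene for 32 libraries, and counts of reads assigned to the Col and the C24 allele per gene for the 16 hybrid libraries. Per the submitters' processing notes, the tools were Trimmomatic, STAR, HTSeq and edgeR with the genome build TAIR10, with versions and roles not given in the sources used here. Per the labels' protocols, RNA came from laser-captured tissue and libraries were made with poly-A selection. The sources used here do not say how reads were split between the alleles or whether mapping favoured Col reads, and each allele test has a term for Col against C24.

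The mother was taken as the first-named parent, and the nuclear and organelle allele reads were checked against this. Rows that name no gene stayed out of library sizes (2.28% to 17.7% of the counts had no feature). The parent of origin was tested with edgeR 4.0.16 in R 4.3.3, by the quasi-likelihood test on allele counts with a block per library, the allele term and an offset of 2 to 1 in endosperm and 1 to 1 in embryo, over genes with at least 10 allele reads in each library. Levels were tested on gene counts with TMM scaling and filterByExpr at a minimum count of 10, by tissue with the cross as covariate, and between crosses in 1 fit of all 16 endosperm libraries. CPM use TMM library sizes over all 32 libraries. P-values were adjusted by Benjamini-Hochberg over all genes tested and called under 0.05. The alternatives were DESeq2 1.42.0, other scalings and filters, other nulls, no allele term, the replicate block and each library left out. The tests were checked on simulated data with 200 genes changed by 2 on the log2 scale and the same set spread for all genes. Recovered were 95% in CNS endosperm, 89.5% in standard embryo, 97.5% in CNS embryo and 96.5% for the tissue level in CNS seeds. For the interaction it was 66%, and for selfed Col against C24 it was 59%. Genes not called may therefore still differ. Pairing was checked by the correlation of same-numbered libraries' deviations from their group means, which was 0.133 to 0.236 for the CNS endosperm. Such low values do not settle whether the replicate numbers pair the libraries, and the labels name no pairing. With Col(C24) as father the number also marks a different mother. The main fits carry no term for the replicate number.

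The 59 genes and all lists were chosen with earlier results of these data known. Genes named with values were, by rule, the 12 with the lowest standard shares, those over 50% in CNS endosperm, the 8 with the largest called level differences of each comparison, up to 8 called in each embryo test and in the interaction, and the 4 on each side of the limit. VIM1, VIM3, RBP47A, RBP47C, SUVH9, DI21, DCL4, AT1G60410, AT3G11310, AT3G60800, AT4G37440, AT4G00390 and AT1G17145 were added after their values were seen. BMI1C, AGL35, AGL40 and AGL45 were dropped from the lists because symbol and identifier did not match. Sequences are from RefSeq TAIR10.1, and 1 start region is not reported here.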

Additional observations from a re-analysis of the deposited data

Results flagged for a closer look

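The maternal share relative to the genome dosage differed between endosperm and embryo of the CNS hybrids, by the test of the parent by tissue interaction, for 19 of the 35 genes that could be tested. In DI21, one of the 19, the share itself was alike in the tissues. On the log2 scale the interaction was -6.23 for AT2G40520, -6.02 for AT1G26620, -5.66 for ULP1D, -4.87 for AT5G10950, -4.56 for DEL2, -3.55 for MKK5, -3.44 for AT3G45090, -3.27 for AT1G67820, -3.09 for AT5G24430 and -2.78 for AT5G50350, so in each the paternal allele held more of the reads in endosperm than in embryo. DEL2, with an adjusted p of 0.048, was lost when any of 6 single libraries was left out, and the other 9 were called whichever library was left out.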

How the results depend on the processing

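Counts of the 59 genes called are given for the settings that moved them by more than 1.5 times. Without the allele term, paternal calls were 17 in CNS endosperm and 0 in each embryo set, and CNS embryo also had 0 with the replicate block. Between selfed Col and C24, 9 were higher and 5 lower with library totals in place of TMM, and 1 was lower with no filter on low counts. Between selfed Col(C24) and C24(Col), 7 were lower with library totals, 17 with no filter and 18 with the block, and 1 when the compared groups were fitted alone, where 4 were higher with the block and 0 when fitted alone. In the reciprocal comparison 8 were higher with no filter, and 3 higher and 1 lower with the block. Between hybrid and selfed, 3 were higher and 1 lower with no filter and 1 higher with DESeq2. Leaving out 1 library gave 22 to 37 paternal calls in CNS endosperm, 1 to 2 in standard embryo, 0 to 1 paternal and 0 to 2 maternal in CNS embryo, and 10 to 18 in the interaction. It gave 4 to 8 higher and 1 lower for Col against C24, 5 to 11 lower and 1 to 4 higher for Col(C24) against C24(Col), and 0 to 1 higher for hybrid against selfed. AT3G60800 in CNS endosperm reversed to 0.38 without Col(C24) as father replicate 1, and ranged from -3.60 to 0.38 over the libraries left out. For single genes, 1754 results kept direction and side of the threshold, 137 fell below it and 21 passed it. The causes were not tested.

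With the replicate block, 44 genes were paternal in CNS endosperm and 18 lower in the interaction, and 20 were higher and 4 lower in selfed Col against C24. Same-numbered libraries correlated at -0.0718 to 0.193 in standard endosperm, 0.0971 to 0.325 in standard embryo and 0.0313 to 0.514 in CNS embryo. These values do not settle whether the numbers pair the libraries there either. The interaction could not be fitted without a whole replicate number, since no residual degrees of freedom were left; its single-library fits and its block were chosen after seeing the data. The number of reads per gene limits the allele tests, since in embryo up to 19 of the 59 genes had under 40 allele reads.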
